A study of Arabidopsis thaliana with 9 samples.

Results

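This account is about 11 probe sets, of 22746 on the array, that read higher in F1 hybrid seedlings of Arabidopsis thaliana than in either parent. They were chosen by a rule on the deposited signals: the lowest of the 3 F1 values had to be at least 50, and at least 1.2 times the highest of the 6 values of Col and C24. The accessions Col and C24 are inbred lines, and each was measured next to their F1 with 3 arrays per group, 9 in all. Whole seedlings without roots were taken at 10 DAS in the unit of the labels, after growth at 22 degrees with phases of 16 h and 8 h in each day. The labels call the 3 replicates of each group biological, do not say how many plants went into each, and leave the direction of the cross unstated. RNA came from whole shoots, so a change in the share of a cell type and a change in the RNA per cell cannot be told apart. Among the 11, 8 probe sets named 1 gene each (AR781, PDF1.2b, AT4G01870, AT3G16530, AT3G26450, AT1G66090, AT4G32750 and BGLU28), and 3 (245736_at, 247351_at and 252677_at) were not listed in the gene annotation used and stay unnamed.

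Hybrids of inbred Arabidopsis accessions often grow larger than their parents, which is known as heterosis, and the hybrid of Col and C24 is a much studied case. For a gene whose parental alleles simply add up, the hybrid is placed between the parents, so a transcript above both parents is called transgressive. Several of the named genes belong to classes that plants use against pathogens or after stress. Defensins are small secreted antimicrobial proteins, lectins bind sugars, and receptors with a nucleotide-binding domain start immune responses inside the cell.

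Because F1 against the parents chose these probe sets, the F1 values below are a description and no test of them is given. Groups of F1 and parental arrays could not overlap for a member. Over the whole array, every F1 array lay above every parental array for 276 of 22746 probe sets (1.21%), with no margin and no lowest signal. With both, 11 were left, while 1 probe set met the mirror rule below both parents. The same rule applied to Col against C24 and F1 gave 134 probe sets, and applied to C24 against Col and F1 it gave 115.

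The size of the set was then compared with what mixed groups give. One array of each genotype was put in the place of F1, in all 27 combinations, and the rule was applied against the other 6 arrays. These trios gave 8 probe sets on average, with a median of 2 and a range from 0 to 109. A count of 11 or more was reached by 3 of the 27 trios. The counts followed the replicate numbers. The 3 trios whose arrays all carried the same number gave 109 (number 1), 6 (number 2) and 37 (number 3). The 18 trios in which only a pair of arrays shared a number gave 3.39 on average and 14 at most, and the 6 trios with 3 different numbers gave 0.5 on average and 2 at most. The 3 F1 arrays themselves carry 3 different numbers. A trio holds genotype differences that F1 arrays do not hold, so its count is not a measure of the error of the 11 alone.

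**Figure D1:**
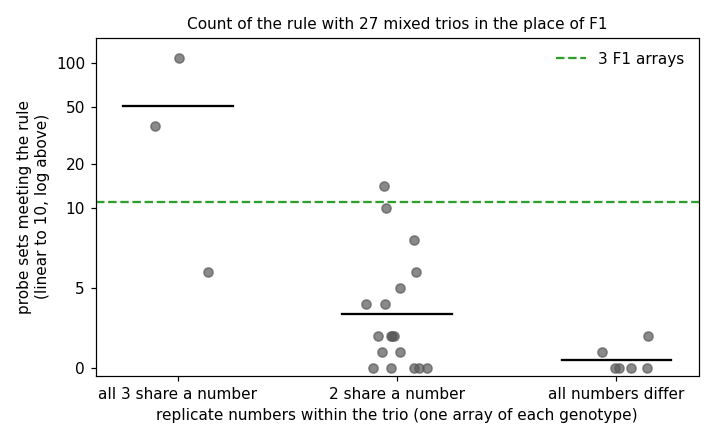
Number of probe sets meeting the rule (vertical axis, linear up to 10 and logarithmic above) when each of 27 trios of one array per genotype takes the place of F1, by how many arrays of the trio share a replicate number. Black bars are means (50.7, 3.39 and 0.5), and the dashed line is the count of 11 for the 3 F1 arrays; the trio of 3 arrays numbered 1 gave 109.

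The defence-related genes are described first. PDF1.2b, a gene of a plant defensin known as a target of jasmonate and ethylene signalling, had signals of 20.3, 10.7 and 25.9 in Col, 15.9, 34.8 and 25.4 in C24 and 66.8, 53.7 and 54.2 in F1. The F1 mean of 58.3 ± 7.39 (SD, n = 3) was 3.07 times the Col mean and 2.29 times the C24 mean. F1 replicate 1 was its highest array, which among the members was otherwise the case for AT4G32750 alone. Its probe set carries an x suffix, which in this array design marks probes shared with other transcripts, as 1061 probe sets (4.66%) carry a suffix of this kind. PDF1.2b and its near-identical relatives therefore cannot be told apart by it. PDF1.2, the best known of these relatives, has a probe set of its own that read 20.1, 14.8 and 25.6 in F1 against 8.41 to 18.19 in the parents. It overlapped them and did not pass in limma, with an adjusted p of 0.636 for Col and 0.536 for C24.

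AT3G16530, which encodes a protein of the legume lectin family, spread most within F1. Its signals were 125, 70.6 and 187 in Col, 105, 149.5 and 101 in C24 and 256, 326 and 881 in F1. All 3 F1 arrays lay above the parents, and F1 replicate 3 was 3.02 times the mean of the other F1 arrays. The F1 mean of 488 ± 342 (SD, n = 3) was 3.83 times that of Col and 4.12 times that of C24.

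AT1G66090, a gene of an immune receptor with a TIR and a nucleotide-binding domain, read 25.2, 35.3 and 19.0 in Col, 29.2, 39.2 and 13.9 in C24 and 53.2, 50.8 and 61.7 in F1. The F1 arrays lay within 1.22-fold of each other, while the C24 arrays spanned 2.83-fold. The F1 mean was 2.09 times that of Col and 2.01 times that of C24.

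AT3G26450 encodes a protein of the family that includes major latex proteins and the pathogenesis-related class known from birch pollen allergen. It is the member whose parents differed most clearly. Signals were 393, 325 and 346 in Col, 168, 177 and 188 in C24, and 519.8, 514 and 585 in F1. The groups stood in 3 separate steps, with F1 above Col and Col above C24. The F1 mean of 539.5 ± 39.4 (SD, n = 3) was 1.52 times the Col mean and 3.03 times the C24 mean.

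The genes known from stress responses come next. AR781, a gene known from wounding and other stress responses whose protein has no well defined function, gave 79.9, 101 and 63.0 in Col, 68.8, 99.6 and 70.9 in C24 and 160.1, 169 and 222 in F1. The parental arrays overlapped, with means of 81.2 in Col and 79.8 in C24. The lowest F1 array was 1.59 times the highest parental array, the widest gap in the set. The F1 mean of 184 ± 33.4 (SD, n = 3) was 2.26 times that of Col and 2.30 times that of C24.

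AT4G01870, a gene of a TolB-related protein, had signals of 58.2, 99.5 and 69.0 in Col, 108, 80.7 and 62.4 in C24 and 152.5, 164 and 179.6 in F1. Its F1 arrays were within 1.18-fold of each other and the F1 mean was 1.97 times the higher parental mean, that of C24.

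BGLU28 encodes a beta-glucosidase, an enzyme class that removes glucose from defence compounds and other glucosides, and its transcript is known as a marker of sulphur deficiency. It read 82.0, 15.1 and 67.9 in Col, 116, 107 and 62.3 in C24, and 288, 141 and 369.9 in F1. This was the member nearest to the margin, at 1.22 times the highest parental array in its lowest F1 array, and the Col arrays spanned 5.42-fold. The F1 mean of 267 ± 116 (SD, n = 3) was 4.85 times that of Col and 2.80 times that of C24.

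The last named member, AT4G32750, has no function given in the annotation used. It was at 31.1, 34.3 and 25.3 in Col, 37.1, 35.1 and 28.1 in C24 and 56.3, 52.9 and 53.2 in F1. These were low but tight values, with F1 arrays within 1.06-fold of each other and an F1 mean 1.62 times that of C24.

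Of the unnamed members, 247351_at was the brightest, at 415, 394 and 278 in Col, 526, 470.5 and 288 in C24 and 759, 804 and 807 in F1. Its F1 arrays agreed within 1.06-fold although both parents had their lowest value in replicate 3. The probe set 245736_at was at 80.2 to 115 in all 6 parental arrays and at 173, 187 and 371 in F1, where replicate 3 again stood apart from the others. For 252677_at the values were 38.3, 35.4 and 40.1 in Col, 27.6, 25.2 and 14.4 in C24 and 50.5, 51.6 and 65.0 in F1, so that F1 was 1.47 times Col and 2.49 times C24.

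**Figure D2:**
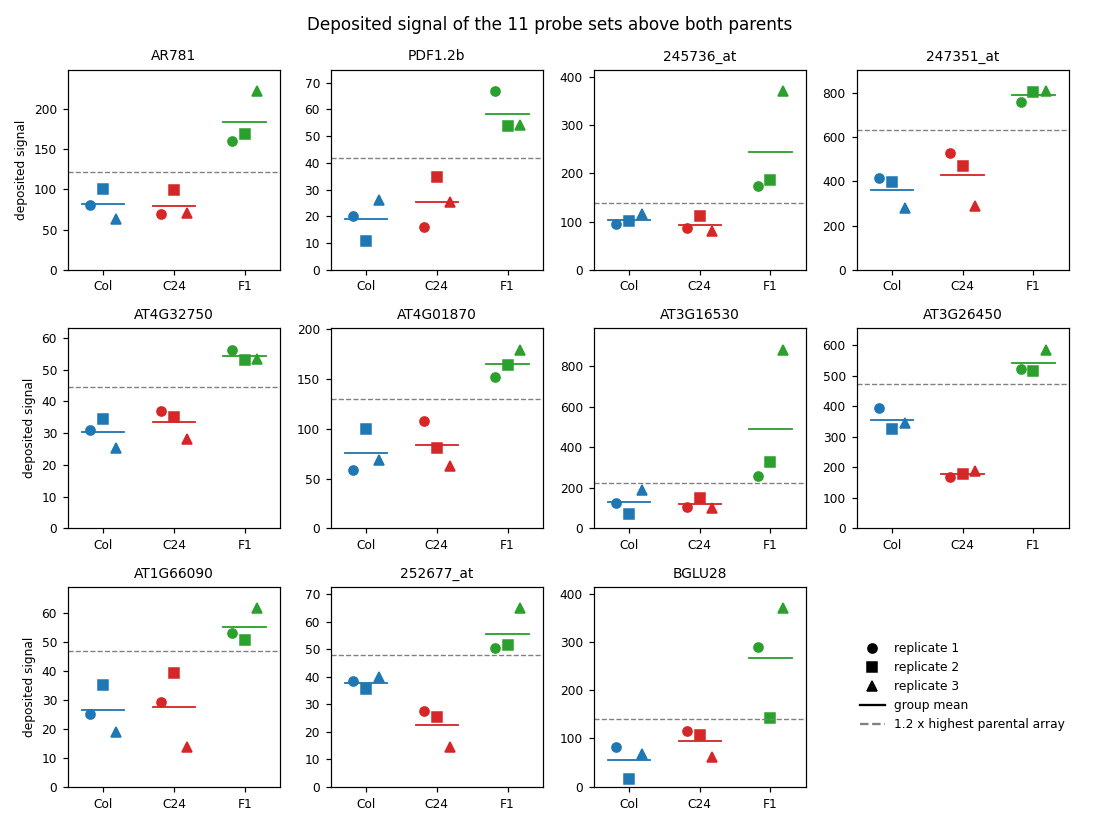
Deposited signal (linear axis from 0) of each of the 11 probe sets in the 9 arrays; points are single arrays with the replicate number as the symbol, horizontal bars are group means, and the dashed line is 1.2 times the highest parental array. Every F1 point lies above the dashed line by the rule, and F1 replicate 3 is far above the other F1 arrays for AT3G16530 (881) and 245736_at (371).

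Over the 11, the F1 mean was between 1.47 and 3.83 times the higher parental mean, with a median of 2.01. The highest parental array was a Col array for 5 members and a C24 array for 6. Near the margin of 1.2, the nearest members inside were BGLU28 (1.22), 252677_at (1.26) and AT1G66090 (1.296). The nearest outside were 264654_s_at (1.19), 254451_at (1.19) and 264758_at (1.15), none of which names a gene here. At the lowest F1 signal of 50, members just inside were 252677_at (50.5), AT1G66090 (50.8) and AT4G32750 (52.9). Those just outside were 246777_at (44.6), 266884_at (29.5) and 248937_at (16.7), all 3 unnamed. A further 10 probe sets would join with a margin of 1.1, and 3 members (AR781, PDF1.2b and 245736_at) would be left with a margin of 1.5.

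Membership also moved with the scaling of the arrays. With quantile normalized values 8 of the 11 met the rule and 2 others joined, and with a common median 8 met it and 1 other joined. PDF1.2b, AT4G32750 and BGLU28 were the members lost under both. AR781 and 245736_at met the rule in every alternative run, but only some of these runs could have removed a member. Those were the other scalings, the higher margin and the higher limit for the lowest F1 signal. Runs with fewer arrays, a lower margin or a lower limit could only keep or add members.

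The F1 arrays spanned at least 2-fold for 3 members, AT3G16530 (3.44), BGLU28 (2.61) and 245736_at (2.14), against 5.43% of the 10829 probe sets whose lowest F1 value was at least 50. F1 replicate 3 was the F1 array with the highest value in 9 of the 11 members. Among those 10829 probe sets, it was the highest F1 array in 40.5%. On quantile normalized values it was again the highest for 9 members, against 33% of those probe sets. This array had the highest median signal (56.6, against 48.0 to 54.8 in the others). Its median signal of 9 hybridisation spike-in probe sets was 134, against 219.8 to 319 in the other 8 arrays. The 3' over 5' ratio of the GAPDH control, a measure of RNA integrity, was 1.17 there and 1.01 to 1.36 elsewhere. The control for 25S ribosomal RNA varied widely between arrays, at 1807 there and 41.4 (F1 replicate 2) to 2464 (Col replicate 2) elsewhere. The part of these array properties in the high values of F1 replicate 3 was not tested. Without that array all 11 still met the rule, as leaving out an array can add members but not remove any, and the set grew to 21.

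The F1 was also set against the higher parent within each replicate number. In replicate 1 the F1 array was 1.32 to 3.297 times the higher parental array of that number, with a median of 1.81. In replicate 2 it was 1.296 to 2.18 times, with a median of 1.58, and in replicate 3 it was 1.62 to 5.44 times, with a median of 2.80. The order differed between genes. PDF1.2b had its widest gap in replicate 1 (3.297), while BGLU28 went from 1.33 in replicate 2 to 5.44 in replicate 3. AT4G32750 (1.51 to 1.89) and 252677_at (1.32 to 1.62) varied least. These ratios depend on the parental arrays too. Replicate 3 was the highest F1 array for 9 members, but also the lowest C24 array for 8 and the lowest Col array for 4. How often the C24 and Col arrays numbered 3 were lowest over all probe sets was not counted. A trait of the members and a trait of these arrays therefore cannot be told apart here.

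**Figure D3:**
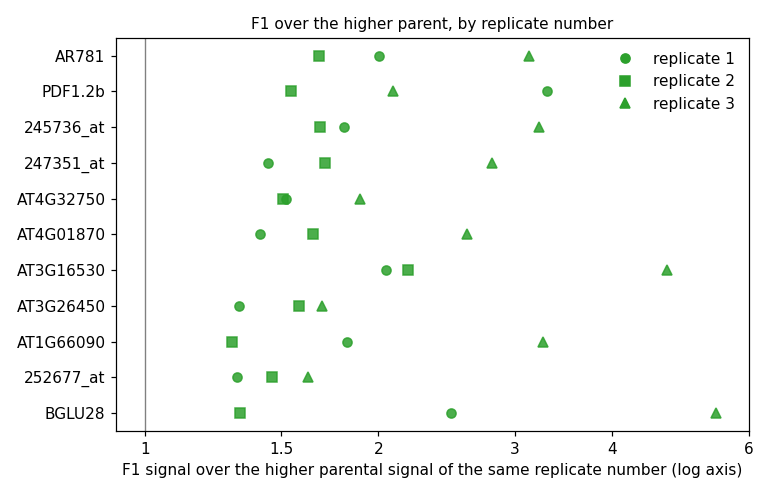
F1 signal divided by the higher of the Col and C24 signals of the same replicate number (horizontal log axis), for each of the 11 probe sets; symbols give the replicate number and the grey line marks equality. Replicate 3 holds the widest gap for 10 members, with PDF1.2b (3.297 in replicate 1) the exception. The share over all probe sets was not counted.

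The rule did not set Col against C24 directly, and this difference was tested, with limma over all probe sets above a low-signal filter. The rule did use the highest parental array, so a probe set with F1 between well separated parents was kept out. The member counts below are therefore not independent of the rule. All 11 passed the filter. For 1 of the 11 the parents differed, against 8.47% of the 15922 probe sets tested in either direction and 4.91% with C24 lower. At an unadjusted p under 0.05 there were 2 of 11, against 21.6%. AT3G26450 was lower in C24 by 0.95 on the log2 scale (log2 difference -0.95 ± 0.13, SE, n = 3 per group, adjusted p = 0.00165), a 1.93-fold difference, with C24 below Col in all 3 replicate numbers. Its adjusted p stayed between 0.000997 and 0.0101 under every alternative run, replicate numbers as a block and each array left out included. A signal that is lower in C24 can also come from sequence differences to the Col-based probes, which these data cannot tell apart from expression. The Col and C24 arrays did not overlap for AT3G26450 and 252677_at, 2 of 11 members, where 22.9% of all probe sets had parents that did not overlap. For 252677_at the log2 difference was -0.65 ± 0.23 and did not pass (adjusted p = 0.13).

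For the other 9 the test did not separate the parents, and the intervals show how large a difference could have gone unseen. AR781 differed by 0.10 (95% interval -0.37 to 0.56, log2 of C24 over Col) and 245736_at by -0.06 (-0.66 to 0.54). BGLU28 differed by 1.14, the widest estimate in the set, with an interval of -0.16 to 2.43, and AT3G16530 by 0.09 with an interval of -0.998 to 1.18. The median over the 11 was 0.16, where that of all probe sets tested was 0.03.

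**Figure D4:**
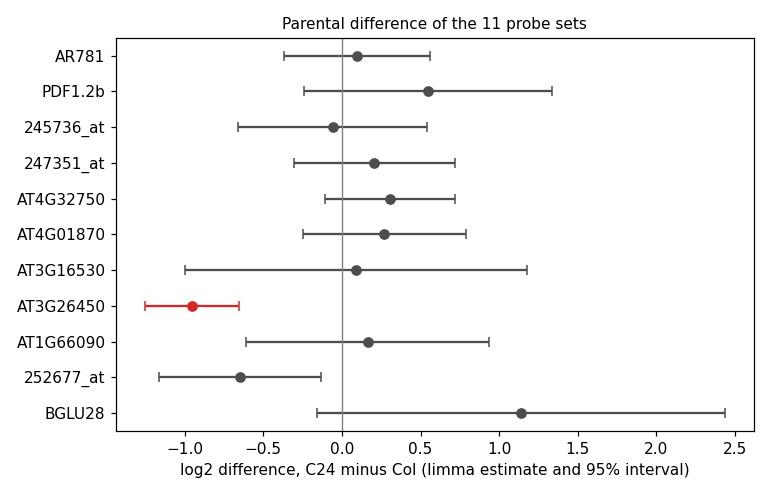
Log2 difference of C24 minus Col for the 11 probe sets (limma estimate and 95% interval, quantile normalized values, 3 arrays per group). Only AT3G26450, in red at -0.95, passed the threshold after adjustment over 15922 probe sets; 252677_at lies at -0.65.

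The trio of arrays numbered 1 had given the highest count, so replicate 1 was also set against the others. Fitted next to the groups, replicate 1 differed from replicates 2 and 3 for 0 of the 11 members after limma's adjustment, where 3.23% of all probe sets were called. At an unadjusted p below 0.05 it was 0 as well, where 17.4% were called. The log2 differences ran from -0.40 (AT3G16530) to 0.71 (BGLU28). The rule itself favours such probe sets, since a high replicate 1 in a parent or a low one in F1 keeps a probe set out.

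Genes that share a known response with the members were read from lists. The list of wound, touch and calcium response genes holds AR781 and 7 further genes with a named probe set, of 52 listed. Of these 7, the F1 mean was above both parental means for 6, where it was for 31.2% of all probe sets, and 6 were bright enough to test. The same limma fit was read for F1 against each parent, where 0.408% of all probe sets were higher in F1 than in Col and 1.7% higher than in C24. Of the 6 genes, 0 passed against Col or C24. Unadjusted p-values below 0.05 were reached by 2 against Col and 1 against C24, where 8.92% and 13% of all probe sets did. STZ, a zinc finger regulator of stress responses, was at 91.2, 36.6 and 56.4 in Col, 192, 206 and 57.9 in C24 and 267, 133 and 510.1 in F1. F1 overlapped C24 and did not pass against Col (log2 difference 2.24 ± 0.58, adjusted p = 0.19). AT3G10930, a gene of a small secreted peptide, was at 4.03 to 5.92 in Col, 10.3 to 16.7 in C24 and 25.3, 17.2 and 151 in F1. Every F1 array lay above every parental array for 1.21% of all probe sets. Outside the gene families read last, AT3G10930 was the only gene, of 76 listed genes other than members, where this held. The gap was narrow, with 17.2 in the lowest F1 array and 16.7 in the highest C24 array, at signals near the bottom of the scale. It did not pass against Col (limma adjusted p = 0.137).

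WRKY53, a transcription factor gene of senescence and defence, and CML38, a calmodulin-like gene, had their highest value of all 9 arrays in F1 replicate 3, at 93.4 and 56.3. STZ and AT3G10930 did so too, which makes 4 of the 7, where this array was the highest of the 9 for 13.9% of all probe sets. In the other F1 arrays WRKY53 (35.8 and 65.9) and CML38 (8.47 and 16.8) were within the range of the parents. AR781 was the one gene of the list that was above the parents by the margin in all 3 F1 arrays. The part of F1 replicate 3 in these values was not tested.

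**Figure D5:**
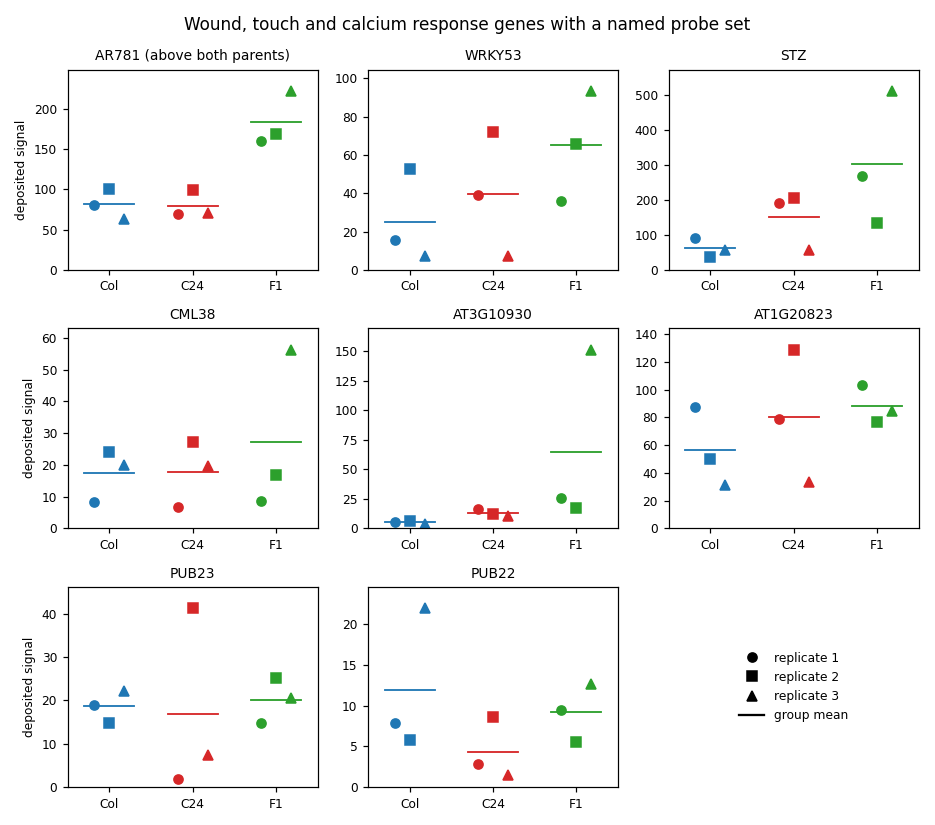
Deposited signal (linear axis from 0) of the 8 wound, touch and calcium response genes with a named probe set, in the 9 arrays; symbols give the replicate number and bars are group means. AR781 is above both parents in all F1 arrays, while STZ, AT3G10930, WRKY53 and CML38 have their highest value of the 9 arrays in F1 replicate 3.

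In the jasmonate list, PDF1.2b stood with 3 further genes, of which 2 could be tested and 0 passed against either parent in limma. An unadjusted p below 0.05 was reached by 0 against Col and 1 against C24. The genes were PDF1.2 and JMT, which makes methyl jasmonate. JMT read 26.3, 15.1 and 21.5 in F1, inside the Col range of 12.9 to 33.6 but above the C24 values of 10.9, 4.43 and 10.0. Against C24 its limma p was 0.0317 unadjusted and 0.323 adjusted. The salicylate list held no member. The chitinase gene CHI was at 16.9, 11.6 and 18.3 in F1 against 81.3 to 175 in C24 and 12.8 to 14.3 in Col, so F1 was at the Col level and below C24 (log2 difference -3.29 ± 0.31, adjusted p = 0.000356). GRX480, a glutaredoxin gene induced by salicylate, read 21.5 to 51.0 in F1, above the Col arrays (12.7 to 14.3) and overlapping those of C24 (38.0 to 65.6), and passed against neither (adjusted p = 0.179 and 0.364).

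Nuclear photosynthesis and chlorophyll synthesis genes, with 11 and 7 genes tested, held no member and had 0 genes past the limma test against either parent. At an unadjusted p under 0.05 there were 0 in either list against Col, and 3 and 0 against C24. In deposited values LHCB4.3, a light-harvesting antenna gene, was the one photosynthesis gene whose mean was highest in F1. Its F1 mean was 1134 ± 255 (SD, n = 3) against means of 895 for Col and 830.4 for C24. Its lowest F1 array, at 935, was below the highest C24 array at 1001, and it did not pass (limma adjusted p = 0.62 for Col and 0.193 for C24). Every other photosynthesis gene of the list had its lowest value of all arrays in F1 replicate 3, and its deposited F1 mean includes that value. PSBY, for instance, read 7018, 6559 and 3797 in F1 against 4980 to 7857 in Col and 5679 to 7604 in C24. The part of F1 replicate 3 in these means was not tested. On quantile normalized values F1 was also estimated above both parents for LHCB4.2 (log2 difference 0.05 against Col, 0.24 against C24). The same held for PSBY (0.09 and 0.05). Over all lists, 71 genes that were no members were tested. Of these, 0 were higher than Col and 2 higher than C24, where 0.408% and 1.7% of all probe sets were. With the replicate number as a block these counts became 1 (PYK10) and 4. In the main fit 0 were lower than Col and 1 was lower than C24. An unadjusted limma p below 0.05 was reached by 8 against Col and 20 against C24, where 8.92% and 13% of all probe sets did. Of 23 cell type markers 3 had a named probe set, all of them listed as root markers. PYK10, a beta-glucosidase gene, was between the parents in F1, at 529 to 776 against 243 to 304 in Col and 1062 to 1857 in C24. It did not pass against Col (log2 difference 1.22, limma adjusted p = 0.069) and passed with the replicate number as a block (adjusted p = 0.0108). EXPA18 and EXPA7 were at 22.6 or less in F1.

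Families and neighbours of the members were read last. Of 19 other beta-glucosidase genes with a BGLU symbol, 10 could be tested, and 0 were higher than Col and 1 (BGLU42) higher than C24. BGLU41 had every F1 array above every parental array, at signals of 7.07 to 13.2 against 6.97 at most in the parents. BGLU29, next to BGLU28 on chromosome 2, was at 5.59 or less in every array, and BGLU15, on the other side, was at 61.7 to 85.8 in F1 against 47.8 to 129 in the parents. The 3 genes on each side of every named member were looked up, and 20 had a named probe set. In 0 of these 20 was every F1 array above every parental array, where this held for 1.21% of all probe sets. Of the 20, 11 were bright enough to test. Among these 11, the one past the test against Col was AT1G66100, a thionin gene next to AT1G66090. Of all probe sets tested, 0.408% were higher in F1 than in Col. AT1G66100 was at 1464, 1832 and 882 in F1 and 1661 to 2157 in C24 against 362 to 411 in Col. Its F1 was above Col (limma adjusted p = 0.00726) but not above C24. The 8 named members lay on chromosomes 1 (1 gene), 2 (3 genes), 3 (2 genes) and 4 (2 genes). No other probe set of the array named any of the 8 genes, so no second reading of them was at hand.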

How the data were processed

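Per the labels, each sample was labelled with biotin and hybridised to a 1-colour Affymetrix array, and GCOS is named in the submitters' processing notes, with no settings. The authors deposited 1 linear intensity for each probe set and no detection call, and each array's values come to a trimmed mean of about 150.01. The rule was applied to the deposited values after 64 control probe sets were set aside. For tests, arrays were quantile normalized, set to at least 1, taken to log2 and filtered at the 30th percentile of the mean (a signal of 11.1), which left 15922 probe sets. One limma 3.58.1 fit in R 4.3.3 used all 9 arrays (lmFit, eBayes with a trend, Benjamini-Hochberg, threshold 0.05), and a second added replicate number 1 as a term. Other scalings, filters, floors, margins, a replicate block and each array left out were tried. The code was tested on simulated data. The number of arrays limits the precision, and p-values measure the spread between these samples.

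Of the probe sets, 13513 named 1 gene, 503 several and 8730 none in the platform annotation; 13436 matched a TAIR10.1 locus. Of 452 listed genes 78 were named by a probe set, and the list of cell division genes had none. Named genes were all members, then up to 2 genes a list with the smallest p against either parent. WRKY53, CML38, BGLU41, the neighbours and the families were named after their values were seen. Members, lists and rules were chosen with earlier results of these data known. The labels do not say that a replicate number marks a shared batch. Deviations of same-numbered arrays from their group means correlated at 0.148 to 0.494 for Col and C24, 0.108 to 0.473 for Col and F1, and 0.013 to 0.455 for C24 and F1. With a limit of 0.1 for all 3 pairs, Col with C24 and Col with F1 met it, but C24 with F1 did not. A number that pairs Col with each of the others would also pair C24 with F1, so the pairing was not settled. Arrays numbered 1 correlated at 0.455 to 0.494, and those numbered 2 or 3 at 0.013 to 0.201. Arrays of different numbers correlated at -0.345 to 0.205, so any pairing is uncertain. The best match of an array in another group carried its own number in 11 of 18 cases. The main fit held no term for the pairing, and the replicate block was run as an alternative. Promoter motifs were not analysed here, since no sequence was at hand.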

Additional observations from a re-analysis of the deposited data

How the results depend on the processing

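The count of 11 members became 21 with a margin of 1.1, 3 with a margin of 1.5, 7 with a lowest F1 signal of 100, and 13 with a lowest F1 signal of 25. It was 10 with quantile normalized values and 9 with a common median. Leaving out 1 array gave 13 to 41, and leaving out replicate number 1 in every group, an alternative chosen after seeing the data, gave 64; fewer arrays make the rule easier to meet. The count of members that differed between C24 and Col (1 lower, 0 higher) and of those that differed in replicate 1 (0) held in every alternative run. Estimates that did not pass changed sign in some alternative for 4 members in C24 against Col (AR781, 245736_at, AT1G66090 and AT3G16530) and for 5 in replicate 1 (PDF1.2b, AT4G01870, AT3G26450, AT1G66090 and 252677_at); their signs are not to be read as directions.

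F1 against Col had 65 probe sets higher and 16 lower. The 65 became 43 with the filter at the 50th percentile, and the 16 became 34 with a floor of 16 and 32 with the replicate block. Leaving out 1 array gave 30 to 65 higher and 5 to 20 lower. F1 against C24 had 271 higher and 60 lower. The 60 became 100 with a common median, 28 with the filter at the 50th percentile, 104 with a floor of 16 and 97 with the replicate block. Leaving out 1 array gave 146 to 268 higher and 19 to 76 lower. The cause of these shifts was not tested. The block changed no call of a member in C24 against Col. For C24 and F1, whose same-numbered arrays did not all reach the limit of 0.1, it is a check only. Among the listed genes that are no members, 23 of 132 results changed side of the threshold in some setting.

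Signals near 50 lie close to the middle of each array's values, and 4 members (PDF1.2b, AT4G32750, AT1G66090 and 252677_at) had an F1 value there.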
